A study of Rattus norvegicus with 6 samples.

Results

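The 1000 most intensely cut compact sites of untreated rat microglia are described here, out of 129499 regions counted across the genome. Microglia are the resident immune cells of the brain. The assay was DNase I-seq: the enzyme cuts DNA that nucleosomes leave exposed, and each sequenced tag marks 1 cut. A compact site was at least 150 and under 1000 bases wide, which 111016 regions met. Sites were chosen by their untreated values: the mean CPM (counts scaled to a total of 1000000 in regions) of both untreated libraries was divided by width, given below as CPM per kb, and the first 1000 were taken. The untreated libraries therefore chose the sites, and a high untreated value is a property of the choice and not a result.

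The 3 groups had 2 libraries each, from independent cultures of microglia of Wistar rats of 1 day of age, and each culture pooled 10 to 15 pups. One group received 100 ng/mL of lipopolysaccharide (LPS) from Salmonella enteritidis for 6 h, a molecule of the outer bacterial membrane that sets off an inflammatory response in microglia. Another received glioma-conditioned medium (GCM) for 6 h, collected after 24 h on C6 rat glioma cells, and the third was left untreated. All cells had been shaken off mixed cortical cultures after 2 weeks in 10% serum and rested for 48 h, and DNase I (0.2 to 3.2 U) then acted on isolated nuclei over 10 min. The study compared inflammatory with glioma-induced, pro-invasive activation. Libraries held 9.82 M and 12.40 M counts in regions with LPS, 8.26 M and 12.1 M with GCM, and 11.1 M and 7.14 M untreated. The labelled cell type was not checked against marker genes, because no annotation or genome of the files' build (rn5) was used, so sites are named by position and no sequence is shown.

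DNase I cuts most densely at regulatory DNA, where bound proteins displace nucleosomes. Such sites are mostly promoters, which start transcription, enhancers, which raise it from a distance, and insulators bound by the factor CTCF. Promoters of widely used genes and CTCF sites are open in most cell types, whereas enhancers often open or close with a stimulus such as LPS. Which of these kinds a given site belongs to was not analysed here.

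Cut density fell steeply over the first ranks and then slowly. The first site, 391 bases wide at 142116208 to 142116598 on chromosome 4, reached 98.7 CPM per kb with LPS, 106.7 with GCM and 124.0 untreated. The second, of 209 bases at 209839423 to 209839631 on the same chromosome, had 76.8 CPM per kb with LPS, 80.4 with GCM and 99.5 untreated. The third, at 142117672 to 142117934, lay 1073 bases from the first. These 3 sites also held ranks 1, 2 and 3 among LPS-treated and among GCM-treated libraries, which the choice did not use. Ranks 4 to 10 lay between 64.6 and 57.2 CPM per kb untreated, at 56843592, 57251411, 100134588, 154948852 and 154952043 on chromosome 1, at 116512106 on chromosome 6 and at 22019401 on chromosome 16. At the limit of the list the values were nearly level: the last 3 sites had 30.74, 30.73 and 30.73 CPM per kb, and the 3 regions just outside had 30.72, 30.72 and 30.72.

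**Figure D1:**
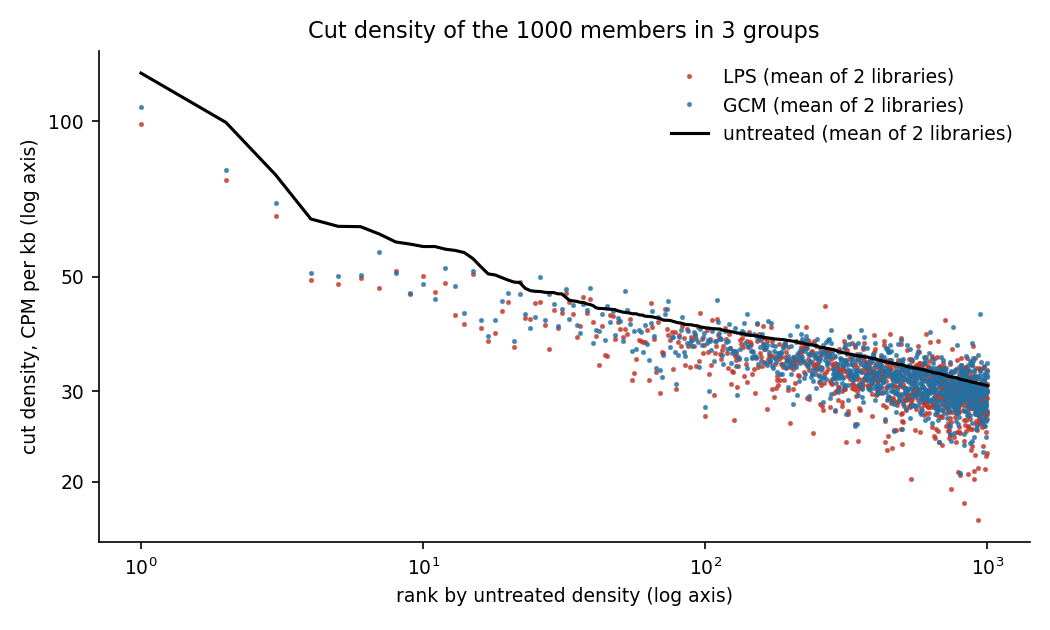
Cut density of the 1000 sites in CPM per kb (log axis) against their rank by untreated density (log axis), with the mean of 2 libraries per group. LPS and GCM points follow the untreated line from 124.0 CPM per kb at rank 1 to 30.7 at rank 1000, most of them slightly below it.

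The median density of the 1000 sites was 31.6 CPM per kb with LPS, 32.1 with GCM and 33.7 untreated. The other 110016 compact regions had medians of 13.3, 13.4 and 13.2 CPM per kb in the same groups. The sites had a median width of 632.5 bases, against 364 bases in the other compact regions, and both width and density entered the choice. They made up 1.002% of the counted length and 2.06% of all counts. Their median count was 190 and 261 with LPS, 180.5 and 229.5 with GCM, and 234 and 160 untreated. The other compact regions had median counts of 49 and 61 with LPS, 39 and 62 with GCM, and 55 and 35 untreated. Single sites went down to 28 and 35 counts with LPS, 28 and 43 with GCM, and 47 and 38 untreated.

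The hotspot lists, in which the authors marked stretches of dense cutting in each library, held almost every site. The counted regions were themselves built from these lists: where the hotspots shared by the libraries of a group were merged across the 3 groups, 129499 intervals resulted, each with the exact bounds of a counted region. Every region therefore overlaps a hotspot in each library of some group. In the LPS lists all 1000 sites lay in a hotspot, and in the GCM lists all but 1 did in replicate 1 and all did in replicate 2. Among the other compact regions these shares ran from 81.0% to 88.6%. The single exception, at 56443720 to 56443902 on chromosome 1, had no hotspot in GCM replicate 1, where it held 33 counts. Hotspots over the sites ranked high by the authors' score within each list, with median percentiles of 97.7 and 98.1 with LPS and 97.8 and 98.1 with GCM, against 56.7 to 62.1 for hotspots over other compact regions in these 4 lists. The hotspots were also of site size, as the way regions were built entails: their median width was 628.5 and 678 bases with LPS and 671 and 642.5 bases with GCM. Over the other compact regions it was 378 and 391 bases with LPS and 379 and 391 bases with GCM.

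The direct comparison of GCM with LPS asks where these stimuli leave chromatin in different states, and it is the one comparison whose difference takes no value from the untreated libraries that chose the sites. Of the 1000 sites, 10 were more accessible with GCM and 0 less accessible (edgeR quasi-likelihood test, adjusted p under 0.05; at an unadjusted p under 0.05, 26 higher and 4 lower). That is 1.0% of the sites, beside 8.58% of all 126284 regions tested, where 3.75% were higher and 4.84% lower. All regions include those counted through hotspots shared by LPS or by GCM libraries and not by the untreated ones. The split by direction depended on single libraries: without GCM replicate 1, 4 sites were higher and 4 lower with GCM, and without LPS replicate 1, 6 were higher and 1 lower. Leaving out any of the other 4 libraries gave 3 to 10 sites higher and 0 lower. DESeq2 called 0 of the sites and only 715 of all 126284 regions. At an unadjusted p under 0.05 (DESeq2), 11 sites were higher and 0 lower. The median log2 fold change was 0.01 over the sites and 0.00 over all regions. Changes were small throughout: the SD of the log2 fold changes was 0.12 over the sites, below the median standard error of 0.13 for a single site, and 0.39 over all regions. Only 3 sites (0.3%) differed by more than 1.5-fold, compared with 12.4% of all regions, which hold fewer counts. The smallest change called among the sites was 0.41 on the log2 scale, so smaller ones were generally not detectable with 2 libraries per group.

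At all 10 sites that were higher with GCM, both LPS libraries lay below both untreated libraries. The untreated values chose the sites, and such separation was not limited to these 10. LPS and untreated libraries did not overlap, in either direction, at 451 of the 1000 sites. This share was not computed over all regions, so nothing is read from it. The log2 change with LPS was negative at 820 of the 1000 sites, beside 50.1% of all regions tested. The site at 47105114 to 47105694 on chromosome 2 had 22.9 and 18.0 CPM with GCM, 13.9 and 10.9 CPM with LPS and 17.0 and 19.1 CPM untreated. Both GCM libraries were above both LPS libraries, and the log2 difference was 0.71 ± 0.14 (SE, n = 2 per group, adjusted p = 0.000902, edgeR). The site at 11973462 to 11973893 on chromosome 15 had 12.8 and 11.5 CPM with GCM, 7.23 and 7.34 CPM with LPS and 13.9 and 12.9 CPM untreated. Its difference was 0.72 ± 0.15 (adjusted p = 0.00137, edgeR), and the LPS libraries alone stood apart. This site held rank 925 untreated and rank 26538 with LPS, the lowest LPS rank of any of the 1000. The site at 19710955 to 19711646 on chromosome 12 had 28.4 and 24.97 CPM with GCM, 18.0 and 18.0 CPM with LPS and 25.1 and 26.9 CPM untreated (difference 0.55 ± 0.13, adjusted p = 0.00436, edgeR).

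The other 7 of the 10 lay at 92470899 on chromosome 1, 14441162 and 20682289 on chromosome 3, 176040112 on chromosome 5, 93409484 on chromosome 10, and 94733894 and 100079336 on chromosome 13. Their differences between GCM and LPS ran from 0.41 to 0.67 on the log2 scale, and in each of them the GCM and LPS libraries did not overlap. All 10 were also called lower with LPS than untreated, with log2 changes from -0.88 to -0.46. Their log2 changes with GCM against untreated ran from -0.16 to 0.18 and none passed the test (smallest adjusted p = 0.599, edgeR). The LPS libraries enter both calls, and the untreated libraries chose the sites, so the second set of calls is not independent. The calls dropped to 3 without LPS replicate 2, and to 0 with whole-library totals as the scale. With that scale the calls over all regions also fell, from 10840 to 5429.

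**Figure D2:**
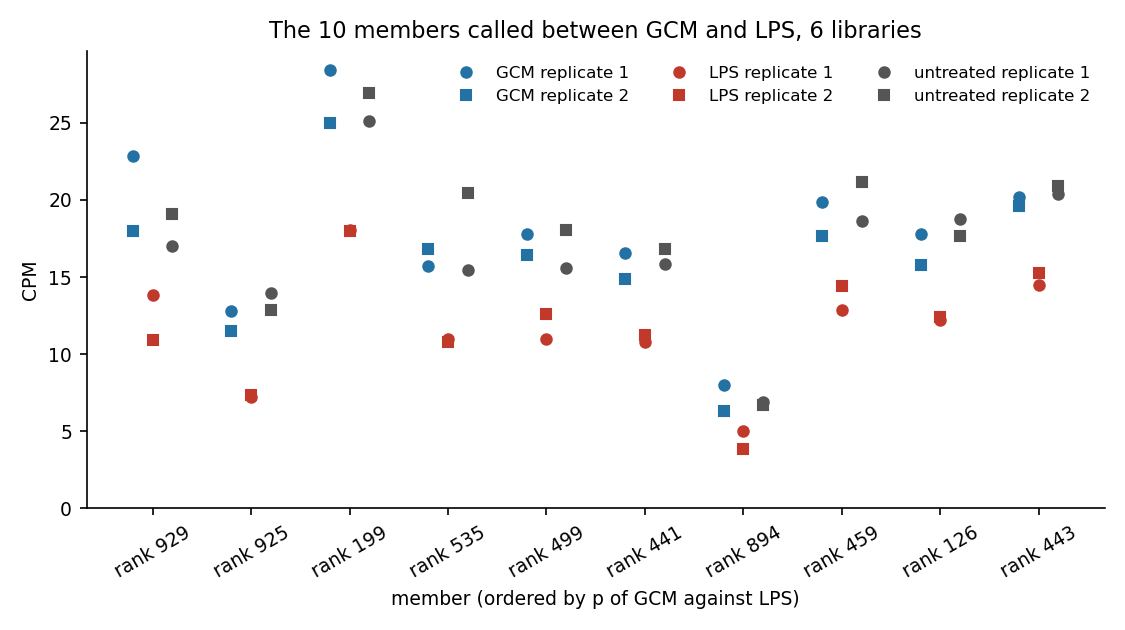
CPM in the 6 libraries at the 10 sites called between GCM and LPS, ordered by p-value and labelled by untreated rank, with circles for replicate 1 and squares for replicate 2. Both LPS libraries lie below all 4 others at each site, as at rank 925 with 7.23 and 7.34 CPM.

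Calls between GCM and LPS were rarest at the top of the ranking and most frequent in its last band. In ranks 1 to 100 there were 0 calls among 100 sites (edgeR; 2 higher and 0 lower at an unadjusted p under 0.05), in ranks 101 to 500 there were 6 (1.5%), and in ranks 501 to 1000 there were 4 (0.8%). Ranks 1001 to 2000 had 19 calls (1.9%), ranks 2001 to 5000 had 98 in 3000 regions (3.27%), and ranks 5001 to 10000 had 4.72%. Among ranks 50001 to 111016, 12.3% were called. The SD of the log2 fold change went up at every step, from 0.10 in ranks 1 to 100 to 0.47 in the last band. Counts moved the other way, from a median of 218.3 per library in the first band to 35.5 in the last, so the regions with the fewest calls were those counted most precisely. With all libraries, the 19 calls in ranks 1001 to 2000 were higher with GCM, whereas in the last band 2414 were higher and 5077 lower.

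**Figure D3:**
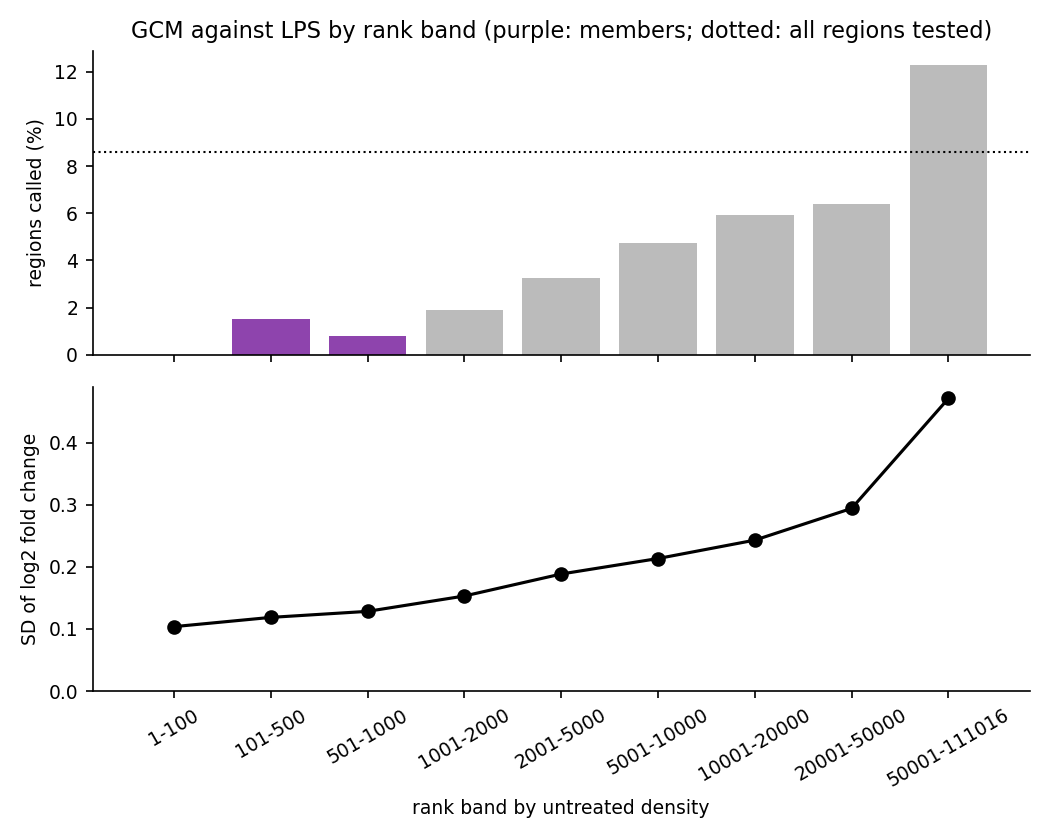
Upper panel, percent of regions called between GCM and LPS (edgeR) in bands of rank by untreated density; lower panel, SD of the log2 fold change in the same bands. Both go from low values in the 1000 sites (purple) to 12.3% and 0.47 in the last band, with 8.58% over all regions tested (dotted).

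Against untreated cultures, 25 of the sites were called lower with LPS and 0 higher (edgeR; 98 lower and 1 higher at an unadjusted p under 0.05; DESeq2 called 1 lower and 0 higher). Of all regions, 3.14% were lower and 6.71% higher with edgeR, 9.85% in all, and DESeq2 called 791 regions. Because the untreated libraries chose the sites, nothing is read from these counts. After the site on chromosome 15 named above, the smallest p was at 92470899 to 92471437 on chromosome 1, with 11.0 and 10.8 CPM with LPS against 15.5 and 20.5 CPM untreated. Others were at 225334061 to 225334366 on chromosome 1 (5.91 and 5.97 CPM with LPS against 9.62 and 9.95 untreated) and at 56166548 to 56167295 on chromosome 1 (17.8 and 17.9 CPM with LPS against 24.997 and 28.2 untreated). The site at 93409484 to 93409950 on chromosome 10 had 12.2 and 12.42 CPM with LPS against 18.8 and 17.7 untreated. At the site at 56166548 the GCM libraries differed from each other, with 16.5 and 24.1 CPM. With GCM, 0 sites were called, beside 1.57% of all regions (edgeR, 1.34% higher and 0.231% lower). At an unadjusted p under 0.05 (edgeR), 46 sites were lower and 1 higher. DESeq2 called 0 sites and 3 of all regions, with 10 sites lower at an unadjusted p under 0.05.

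To keep the choice apart from the comparison, compact regions were ranked in a single untreated library and compared with the other one. Of the first 1000 regions ranked in untreated replicate 1, 8 were lower and 0 higher with LPS than in untreated replicate 2 (edgeR, 73 at an unadjusted p under 0.05), beside 3.48% of all regions called and 0.841% lower. Of the first 1000 ranked in untreated replicate 2, 2 were lower and 0 higher with LPS than in replicate 1 (31 at an unadjusted p under 0.05), beside 3.65% called and 0.711% lower. The median log2 change with LPS was -0.12 and -0.04 in these lists, against 0.00 over all regions in both fits. With GCM, 0 regions were called in either list (edgeR; 38 and 5 at an unadjusted p under 0.05), beside 0.00948% and 0.0685% of all regions (0.0% and 0.000788% lower), and its median log2 changes were -0.11 and -0.02. In each of these fits a single untreated library stood for its group and was taken to vary like the others. With whole-library totals as the scale these medians turned to values between 0.01 and 0.02, while the median of all regions was 0.15 and 0.05 for LPS and 0.09 and -0.01 for GCM.

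Most sites stayed near the top of the ranking with either stimulus. When the same ranking was made from the LPS libraries, 667 of the 1000 sites were again among its first 1000, and 725 were when it was made from the GCM libraries. All 3 lists shared 597 sites, and 205 sites were in neither stimulated list. The median rank of the sites was 611 with LPS and 565 with GCM, and 97.3% and 99.3% of them stayed within the first 5000 of 111016 regions. The lowest rank with GCM was 11283, at 11388088 to 11388272 on chromosome 9, a site of 185 bases. Rankings from single libraries shared 581 of 1000 regions in the LPS pair, 583 in the GCM pair and 704 in the untreated pair. Between libraries of different groups they shared 521 to 703, a range that covers the first 2 of these values.

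Over the 6 libraries the highest CPM of a site was a median of 1.29-fold above its lowest, against 1.57-fold in the other compact regions, which hold fewer counts. Only 3 sites (0.3%) varied by more than 2-fold, compared with 20.2% of the other compact regions. The steadiest site, at 31902044 to 31902647 on chromosome 13, had 19.1 and 19.7 CPM with LPS, 19.8 and 20.2 with GCM and 19.2 and 18.9 untreated. Next came 34945633 to 34946255 on chromosome 7, with 20.2 and 19.1 CPM with LPS, 19.2 and 19.1 with GCM and 19.2 and 20.6 untreated. The next 3 were 139031218 on chromosome 6, 30719452 on chromosome 11 and 88245247 on chromosome 10, each within 0.14 on the log2 scale over 6 libraries. Of the 3 widest ranges, those on chromosome 2 at 47105114 and on chromosome 3 at 20682289 belong to the 10 sites called between GCM and LPS.

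The widest range was at 5244479 to 5244894 on chromosome 20, and there replicate number and not treatment separated the libraries. Replicate 1 held 8.56 CPM with LPS, 7.62 with GCM and 8.09 untreated, while replicate 2 held 16.9, 16.3 and 20.3 CPM. Replicate 2 was above replicate 1 by 0.99 on the log2 scale with LPS and by 1.33 untreated. It was the only one of the 1000 sites in which the replicates of all 3 groups differed in the same direction by more than 0.5, and 184 of the 110011 other compact regions with counts in every library did so (127 with replicate 2 higher and 57 with replicate 1 higher; 0.167%). The labels do not say whether libraries of the same number share a pool of pups.

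Replicates of 1 group also differed over the sites as a set, most of all with GCM. GCM replicate 2 was below GCM replicate 1 in 882 of the 1000 sites, by a median of 0.22 on the log2 scale, whereas over all regions it was above it by 0.06. Untreated replicate 2 was above untreated replicate 1 in 764 sites, by a median of 0.10, and LPS replicate 2 was above LPS replicate 1 in 688, by 0.07. For comparison, the median log2 difference between GCM and LPS was 0.01, and it ran from -0.12 to 0.17 over the 4 pairs of single libraries. The share of each library's counts that fell in the sites was 1.94% and 2.06% with LPS, 2.20% and 1.90% with GCM, and 2.10% and 2.27% untreated. The share of all reads that fell in counted regions was 12.2% and 12.1% with LPS, 13.7% and 10.0% with GCM, and 11.7% and 10.9% untreated. In the GCM pair, the library with the larger share of reads in regions had the higher values at most sites. In the LPS and untreated pairs, the library with the larger share had the lower values at most sites. The part of that share in the result was not tested.

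At the top of the ranking, counts followed depth least in the untreated pair. The first site held 407 and 443 counts with LPS, 385 and 444 with GCM and 450 and 403 untreated, although untreated replicate 1 had 1.56 times the total of untreated replicate 2. That is 1.15 and 1.03 tags per base in the untreated libraries, against medians of 0.148 and 0.0954 in the other compact regions. The second site had 168 and 186 counts with LPS, 157 and 176 with GCM and 185 and 178 untreated. Summed over ranks 1 to 10, the library with the most counts had 1.38 times the counts of that with fewest. This ratio was 1.58 over all 1000 sites, 1.63 in ranks 1001 to 2000 and 1.74 over all counted regions. Within groups, counts summed over ranks 1 to 10 differed 1.22-fold with LPS and 1.35-fold with GCM, where totals differed 1.26-fold and 1.46-fold. In the untreated pair these counts differed 1.14-fold and totals 1.56-fold. Over these ranks untreated replicate 2 had 77.9 CPM per kb, and the other libraries had 53.9 to 58.8. In CPM, untreated replicate 2 was above untreated replicate 1 in 10 of the first 10 sites, by a median of 0.46 on the log2 scale. Untreated replicate 2 was also higher in 10 of the first 10 regions ranked by LPS (median 0.46). It was higher in 10 of the first 10 ranked by GCM (median 0.45). Those rankings did not use untreated libraries, but untreated ranks 1, 2, 3, 4, 6 and 8 were in the first 10 of both. They are therefore not a separate check. How tags from 1 position were counted is not given in the sources used here, and the part of depth in these values was not tested.

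**Figure D4:**
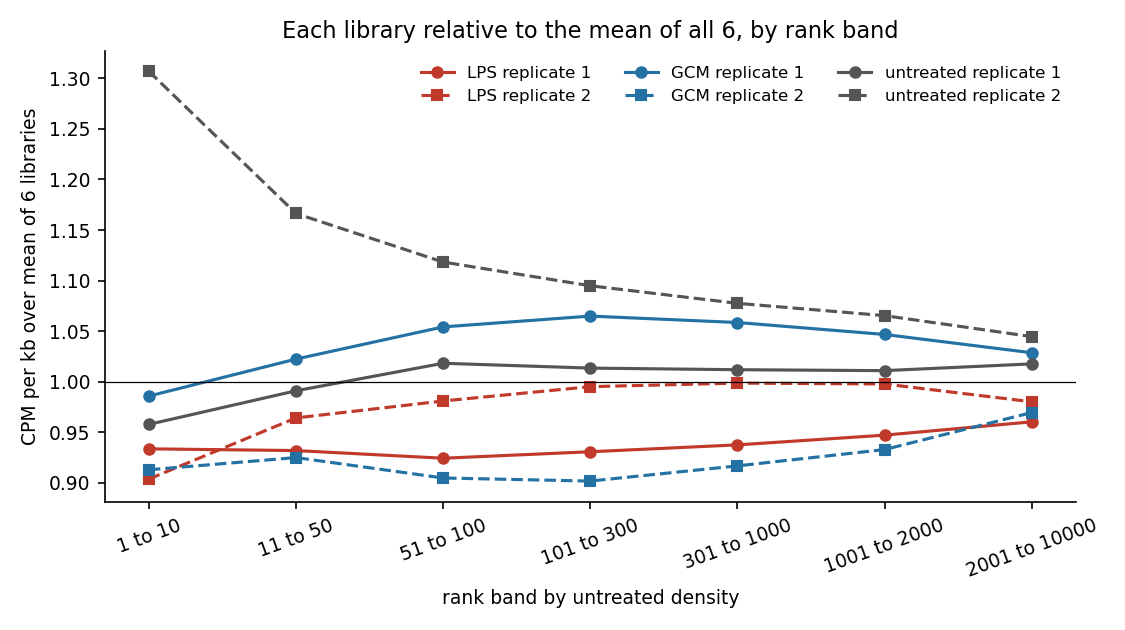
CPM per kb of each library divided by the mean of all 6, in bands of rank by untreated density, with circles and solid lines for replicate 1 and squares and dashed lines for replicate 2. Untreated replicate 2 departs most in ranks 1 to 10, and GCM replicates 1 and 2 lie on opposite sides of the mean from rank 11 to rank 10000.

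The sites were spread over all 21 chromosomes with counted regions. Their share among compact regions was 9.01 per 1000 overall and lay between 4.68 on chromosome 17 and 15.2 on chromosome 12. Chromosome 12 held 45 sites among 2962 compact regions and chromosome 20 held 41 among 2852 (14.4 per 1000). At the other end, chromosome 17 held 21 among 4485 and chromosome 2 held 46 among 8272 (5.56 per 1000). Per length, chromosomes 12, 10 and 20 had 8.28, 8.13 and 7.11 sites per 10 Mb, compared with a median of 2.96 over chromosomes and 0.842 on chromosome X. Chromosomes 10 and 12 also had the most compact regions per Mb, with 67.9 and 54.5. Within 5 Mb of the first or last counted region of a chromosome lay 8.4% of the sites and 7.06% of the other compact regions.

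Along a chromosome, a site was followed by the next after a median of 689.6 kb, and the quartiles of the gaps were 160.4 and 2524 kb. Among all 111016 compact regions the median gap was 5.78 kb. A median gap depends on how many regions are listed: it was 1651.67 kb for the first 500 sites and 334.276 kb for the first 2000. The difference from 5.78 kb is therefore not read as a trait of the sites. The median distance from a site to its nearest fellow was 279.3 kb, and 759 sites had another within 1 Mb, 201 within 50 kb and 64 within 10 kb. The most isolated, at 75290005 to 75290496 on chromosome X, lay 31.7 Mb from any other, followed by sites at 46156333 on chromosome 14 (23.7 Mb) and 117200676 on chromosome 9 (19.2 Mb). The nearest counted region of any kind lay 292, 11726 and 674 bases from these 3 sites, in the order named. Over all 1000 sites it lay a median of 1157 bases away, against 1752 bases for the other compact regions. It lay within 1 kb for 46.6% of sites and 37.5% of the others.

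**Figure D5:**
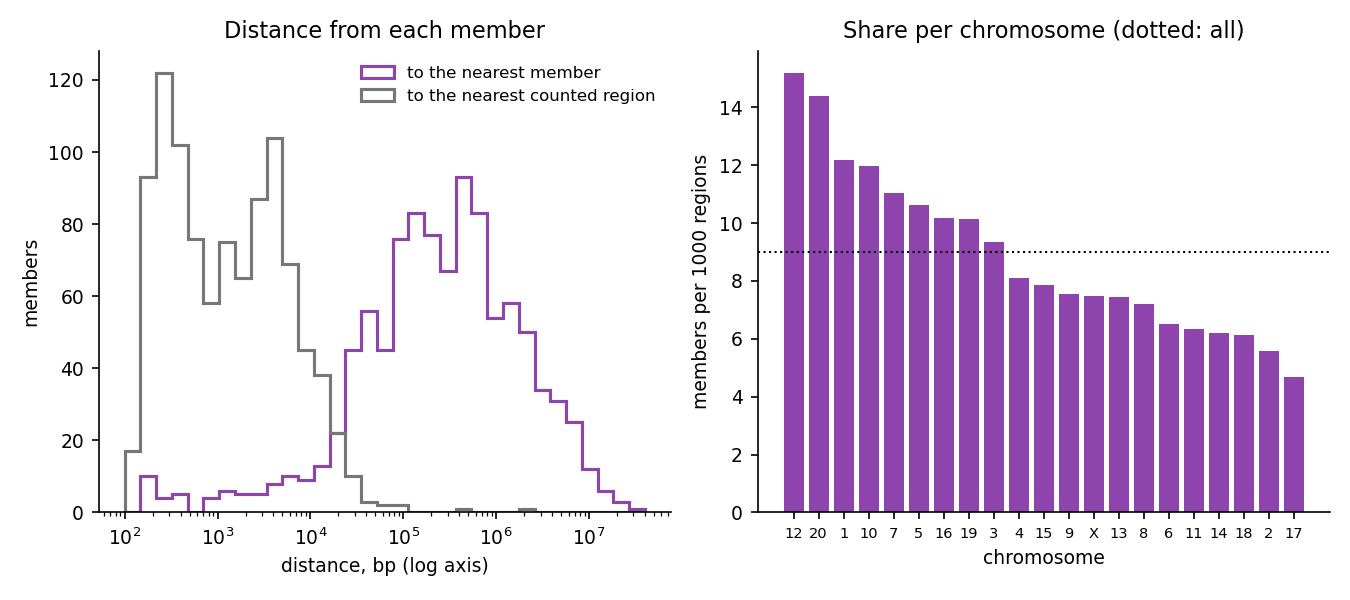
Left, distance in bp (log axis) from each site to the nearest other site (purple) and to the nearest counted region (grey); right, sites per 1000 compact regions on each chromosome, with 9.01 overall (dotted). Most sites lie over 10 kb from the next, with a small group nearer, and chromosomes 12 and 20 have the highest shares.

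A small group of sites lay in tight runs. Of the 1000, 936 had no other site within 10 kb, and the remaining 64 formed 26 runs, 19 of them pairs. The longest run held 5 sites within 8.71 kb, from 100126751 to 100135457 on chromosome 1, with untreated densities of 33.2, 56.2, 35.7, 48.8 and 62.6 CPM per kb in order. Runs of 4 lay from 56856286 to 56861281 and from 56912886 to 56918594 on chromosome 1 and from 42609069 to 42617321 on chromosome 20. Runs of 3 lay at 22006958 to 22020258 on chromosome 16 and at 95678177 to 95680514 and 95722004 to 95727300 on chromosome 13. The 1 Mb from 56 to 57 Mb on chromosome 1 alone held 15 sites among its 68 compact regions (22.1%), and 8 of 66 (12.1%) lay between 21 and 22 Mb on chromosome 16. In total 20 windows of 1 Mb held 5 or more sites, 129 sites together, and 386 windows held a single site.

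Some sites in runs stood at the top of the ranking, and others reached down to rank 990. As a set they had a pattern of counts like that of the top, and part of the sites are in both sets. Of the first 10 sites, 7 had another within 10 kb. In the 64 sites in runs, untreated replicate 2 was above untreated replicate 1 by a median of 0.26 on the log2 scale, against 0.10 in the 936 others. GCM replicate 2 was below GCM replicate 1 by a median of 0.09 in runs and by 0.22 in the others. The library with the most counts had 1.44 times those of the library with fewest in runs, against 1.60 times in the others. None of the 10 sites called between GCM and LPS lay in a run, and the count of 10 is the same without the 64 sites. In the run on chromosome 20, the site at 42612728 to 42613346 had 146 and 213 counts with LPS, 130 and 194 with GCM and 196 and 185 untreated. Its untreated libraries were nearly level in counts despite their difference in depth. The other sites of this run had 252 and 193, 95 and 86, and 217 and 189 counts untreated, so the first of them was less level.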

How the data were processed

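DNase I-seq tags of 6 libraries, 2 independent cultures in each of 3 groups per the labels, were analysed from deposited tables; p-values measure the spread between these cultures. The submitters' processing notes name build rn5, edgeR, DiffBind, Picard 1.95, SAMtools, Bowtie 1.1.2 and cutadapt 1.8.3, with no order or settings. The authors deposited raw tag counts per region, which every test here used. In 2 further tables the authors give CPM per library and, for each stimulus against untreated, a log2 fold change, a p-value with FDR and a likelihood ratio score; only their CPM was used, which gave whole-library totals of 60.1 to 120.5 M reads (multiplied back, 100% of values were whole to within 0.001). The score of each deposited hotspot list is the authors', with a false discovery rate of 0.01 and no definition in the sources used here; it ranked hotspots within a list, and 1 shared base counted as overlap. Another 20 columns of per-sample values were not used.

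All 3 groups were fitted together with edgeR 4.0.16 (quasi-likelihood test, TMM scaling, regions with low counts removed, Benjamini-Hochberg adjustment over 126284 regions, threshold 0.05), in R 4.3.3; the procedure was tested on simulated counts. Alternatives were DESeq2 1.42.0, other scalings, no filter, a replicate block, leaving out each library, other list sizes, widths and distances. The sites, rule and lists were chosen with earlier results of these data known. Sites named are the first 10, those at the limit, those called (10 per direction for GCM against LPS and 5 for the others, by p, groups not overlapping), the 5 steadiest and 3 most variable, the longest runs, the most isolated, and the extreme chromosomes; other sites and windows were named after their values were seen. Positions are 1-based. Same-numbered libraries were checked for pairing over 117719 regions: their deviations correlated at 0.00 for GCM and LPS, 0.04 for LPS and untreated and 0.11 for GCM and untreated, so the numbers were not taken as pairs. Gene annotation, marker genes and sequence features were not analysed here.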

Additional observations from a re-analysis of the deposited data

How the results depend on the processing

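Of 122 values recomputed under alternatives, 87 stayed within their limits and 35 moved; causes were not tested. The 10 sites called between GCM and LPS became 0 with whole-library totals and 0 with DESeq2. Calls over all regions went from 10840 to 5429 and 715 in the same settings. The count of sites was 6 among the first 500, 29 among the first 2000 and 3 when ranked by CPM alone. Leaving out 1 library gave 3 (without LPS replicate 2) to 10. By direction, 4 were higher and 4 lower without GCM replicate 1, 6 higher and 1 lower without LPS replicate 1, and 0 lower without each of the others. The same fits gave a median log2 change from -0.1137 (without GCM replicate 1) to 0.1519 (without GCM replicate 2). The 25 sites called for LPS against untreated became 1 with whole-library totals (median -0.0106) and 1 with DESeq2. Calls over all regions went from 12433 to 6975 and 791 in the same settings. The count of sites was 14 among the first 500, 63 among the first 2000 and 11 by CPM alone. Leaving out 1 library gave 3 (without untreated replicate 2) to 38 (without GCM replicate 2), with 12 without LPS replicate 1 and 16 without untreated replicate 1. For GCM against untreated, the count of 0 (edgeR; 47 at an unadjusted p under 0.05, DESeq2 0) became 1 with DESeq2 size factors, 1 with totals in regions and 1 among the first 2000, and 0 to 3 (without GCM replicate 1) with 1 library left out; it was 1 without either LPS library.

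With the replicate block, although the numbers were not taken as pairs, 10 sites were called for GCM against LPS, 33 for LPS against untreated and 1 for GCM against untreated. The 8 regions lower with LPS, ranked in untreated replicate 1, became 2 when ranked in replicate 2 and 0 with whole-library totals. The median gap of 689.6 kb became 1651.67 kb for the first 500, 334.276 kb for the first 2000 and 906.25 kb by CPM alone. The 64 sites within 10 kb of another became 31, 164 and 18 in the same lists, and 201 at 50 kb. Of the first 500, 337 were shared with LPS and 361 with GCM. Leaving out the 64 sites in runs, chosen after seeing the data, left 10, 24 and 0 calls for GCM against LPS, LPS against untreated and GCM against untreated. With 2 libraries per group, changes under about 0.41 on the log2 scale were seldom called.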
